A study of Homo sapiens with 6 samples.

Results

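Small heat shock proteins, BAG proteins and heat shock factors are the holding, handing-over and switching parts of the heat shock system. The 10 genes described here were taken by symbol from the 58735 named genes of the count table: the small heat shock proteins HSPB1, HSPB8 and CRYAB, the cochaperones BAG1, BAG2 and BAG3, the transcription factors HSF1, HSF2 and HSF4, and HSBP1, which binds heat shock factors. Counts come from RNA-seq of 8505C, an established human line grown from an anaplastic thyroid carcinoma, so that all values describe 1 line. The libraries KD1, KD2 and KD3 carry the label of a short hairpin RNA against HHEX, a homeobox transcription factor of thyroid development, and their genotype label reads HHEX KD. The other 3, control1, control2 and control3, carry the label of a control hairpin, and their genotype label reads wild-type. All 6 are labelled untreated, and no label names a heat treatment. The labels used here do not say whether the cells were a clone or a pool, nor which hairpin sequence was used, and in the sample titles 2 of the 3 libraries of a group share a first number, which the count columns do not carry.

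Small heat shock proteins bind unfolding proteins without using ATP and keep them soluble. BAG proteins dock on HSP70 through a shared domain and make it release its nucleotide and its client, and they differ in where the client then goes: BAG1 leads towards the proteasome, BAG3 towards autophagy, and BAG2 inhibits the ubiquitin ligase CHIP. Heat shock factors are trimeric when active and bind repeats of the letters nGAAn in promoters, the heat shock element. HSF1 drives the stress response and is held back by chaperones in resting cells, HSF2 acts in development and together with HSF1, HSF4 is best known from the lens, and HSBP1 binds the trimerization domain and is known as an inhibitor of HSF1.

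Total counts over named genes were 14052770 to 15067566 in the libraries labelled HHEX shRNA and 13333245 to 15144176 in the controls, and 3 counts equalled 0.198 to 0.225 CPM (counts scaled to library size). In KD1, KD2 and KD3 HHEX itself was at 14.8, 7.94 and 7.13 CPM, against 12.7, 12.8 and 12.0 CPM in control1, control2 and control3. The target thus goes against the label of the library labelled KD1, and the group difference (log2 fold change −0.33, SE 0.28) did not pass the quasi-likelihood test of edgeR (adjusted p = 0.527). Over log2 CPM of the tested genes KD1 and KD2 correlated at 0.9887, while KD3 correlated with them at 0.9554 and 0.9563 and with the controls at 0.9709 to 0.9774. KD3 therefore stands apart from the other libraries of its label, and its value is given separately for each tested member. Among markers of thyroid follicular cells, TG and SLC5A5 had no count in any library labelled HHEX shRNA, TSHR had at most 0.0716 CPM there and at most 0.299 CPM in the controls, and NKX2-1 was at 18.0 to 38.0 CPM in these libraries and at 26.8 to 50.5 CPM in the controls. Of the epithelial markers, KRT8 was at 1017, 901 and 487 CPM in the libraries KD1, KD2 and KD3, against 446 to 664 CPM in the controls, and KRT18 at 343 to 394 CPM in HHEX shRNA libraries and 325 to 456 CPM in the controls. EPCAM was at 0.203 to 1.69 CPM in the libraries labelled HHEX shRNA and 1.33 to 2.28 CPM in the controls, and CDH1 had no count in any library labelled HHEX shRNA and at most 0.0749 CPM in the controls. Muscle, a tissue rich in CRYAB and HSPB8, was not visible in its markers: DES, ACTA1, MYH7 and MB summed to 0.212 to 0.358 CPM in the libraries labelled HHEX shRNA and to 0 to 0.130 CPM in the controls. Summed markers of fibroblasts lay at 3.39 to 6.44 CPM in the libraries labelled HHEX shRNA and 2.77 to 5.41 CPM in the controls, those of leukocytes at 0 to 0.918 CPM in the HHEX shRNA group and 0.0652 to 0.225 CPM in the controls, and those of endothelium at 5.01 to 14.9 CPM in HHEX shRNA libraries, lowest in KD3, and 15.0 to 16.2 CPM in the controls. The part of any of these in the member values was not tested.

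Promoter windows of 3 members are shown because their transcripts had fold changes of different signs and because the heat shock element can be read in the letters. The windows are those of RefSeq on GRCh38.p14, 300 bases long around the annotated start, plus strand, written 5′ to 3′. Capitals mark matches to GAANNTTC, an inverted pair of heat shock units. HSPB8 stands at chr12:119178681-119178980, HSPB1 at chr7:76302423-76302722 and BAG3 at chr10:119651130-119651429.
HSPB8: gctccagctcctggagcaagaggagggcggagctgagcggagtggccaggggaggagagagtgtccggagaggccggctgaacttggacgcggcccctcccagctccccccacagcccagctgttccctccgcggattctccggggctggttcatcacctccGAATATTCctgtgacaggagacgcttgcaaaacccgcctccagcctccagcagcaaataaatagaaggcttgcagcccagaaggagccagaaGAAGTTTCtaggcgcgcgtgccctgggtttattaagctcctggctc
HSPB1: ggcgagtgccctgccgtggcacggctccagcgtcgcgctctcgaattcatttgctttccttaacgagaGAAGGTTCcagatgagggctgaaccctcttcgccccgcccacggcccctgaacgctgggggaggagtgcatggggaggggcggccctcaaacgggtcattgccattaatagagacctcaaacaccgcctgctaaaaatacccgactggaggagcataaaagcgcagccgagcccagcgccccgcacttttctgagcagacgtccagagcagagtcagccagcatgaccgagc
BAG3: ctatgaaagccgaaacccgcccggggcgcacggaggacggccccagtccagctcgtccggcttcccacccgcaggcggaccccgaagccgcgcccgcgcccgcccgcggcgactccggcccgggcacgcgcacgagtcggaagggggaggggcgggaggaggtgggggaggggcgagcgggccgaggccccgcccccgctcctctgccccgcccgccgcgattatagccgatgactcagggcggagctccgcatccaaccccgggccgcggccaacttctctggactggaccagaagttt

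The HSPB8 window held GAATATTC, whose first base lies 88 bases before the start (position −88), and GAAGTTTC at position 5 after it. HSPB1 held GAAGGTTC at −182, and BAG3 held no match. Of the 8 members with a window searched, 3 held a match (BAG2 was the other, with GAACCTTC at −124) and 5 did not. HSF1 and CRYAB were not searched. Both inverted pairs, GAANNTTC and TTCNNGAA, read the same on either strand and may overlap in a longer element. The search covered 35116 windows and left out those of chromosome 8. GAANNTTC is in 6.77% of these windows, TTCNNGAA in 7.74% and either in 13.49%. The 3 alternating units in a row are in 0.49% and in no window searched for a member. A match is a run of letters, not a measured binding site, and the absence of one says only that these letters are not in this window.

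Of the 10 members, 9 passed the filter on low counts and none passed edgeR's quasi-likelihood test over the 14280 tested genes. The same test called 26 genes, 15 higher and 11 lower in the libraries labelled HHEX shRNA, which is 0.182% of those tested. At an unadjusted p under 0.05 stood 4 members (HSPB8, BAG3, BAG2 and HSBP1) and 2937 genes. In 4 members, HSPB8, BAG1, BAG2 and BAG3, every library labelled HHEX shRNA lay above every control, a pattern found in 11.6% of the tested genes. No member had all of these libraries below all controls, as 13.3% of the genes did. The median log2 fold change was 0.27 over the 9 tested members and −0.01 over all tested genes. These counts follow from libraries of which KD1 and KD2 are close to each other, and p-values describe the spread between these 6 libraries.

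**Figure D1:**
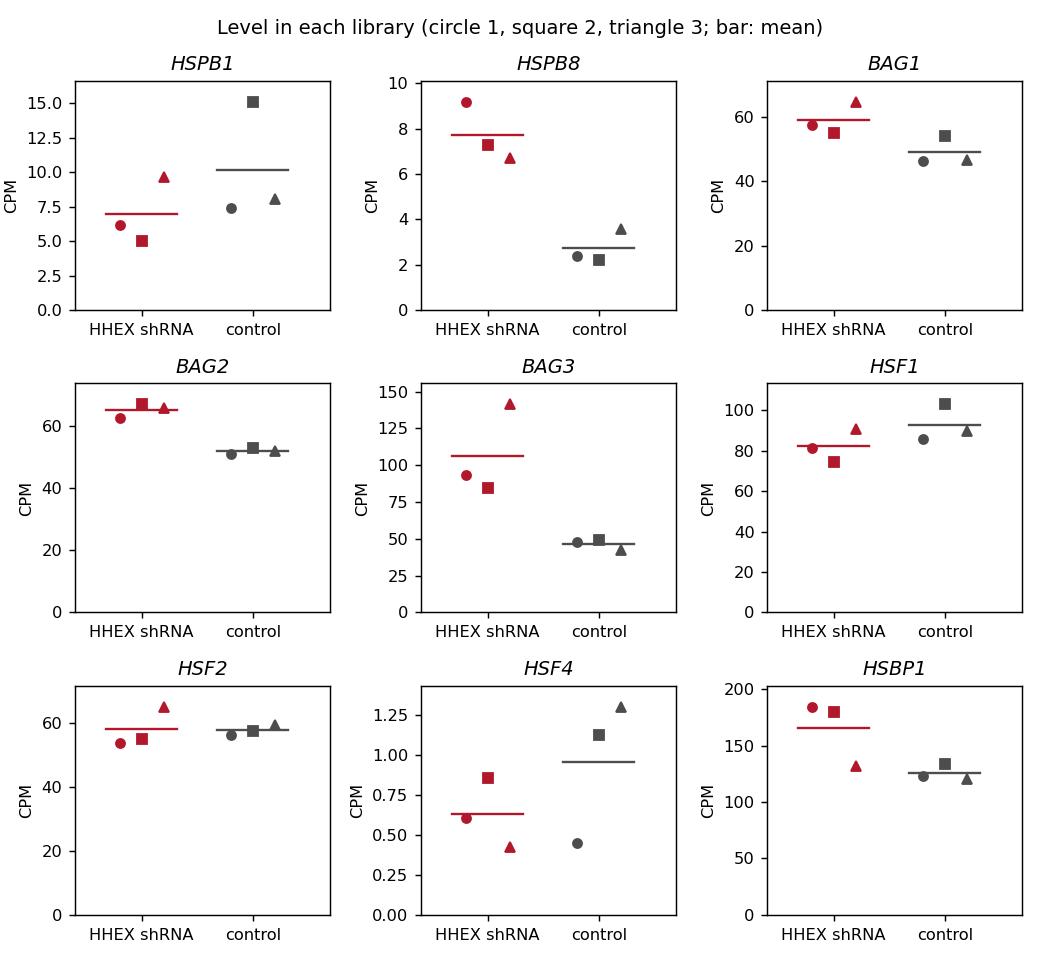
CPM of the 9 tested members in each library, on linear axes from 0, with the libraries labelled HHEX shRNA on the left and the controls on the right of each panel; points are libraries and bars are group means. HSPB8 and BAG3 are higher in all 3 libraries labelled HHEX shRNA than in any control, while the groups of HSF2 overlap.

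HSPB8 (ENSG00000152137, chromosome 12, 119178642 to 119221131, plus strand) is a small heat shock protein that pairs with BAG3 to deliver misfolded proteins to autophagy. In KD1, KD2 and KD3 it was at 9.18, 7.30 and 6.71 CPM, against 2.40, 2.19 and 3.59 CPM in control1, control2 and control3. Every library labelled HHEX shRNA lay above every control, and the exact 95% Poisson interval of the lowest of them (5.43 to 8.20 CPM in KD3) did not reach that of the highest control (2.70 to 4.67 CPM in control3). The intervals cover counting error only. The means were 7.73 ± 1.29 CPM in the libraries labelled HHEX shRNA and 2.73 ± 0.753 CPM in the controls (SD, n = 3 each), a log2 fold change of 1.50 (95% confidence interval 0.86 to 2.13, SE 0.28). It did not pass over all genes (edgeR adjusted p = 0.0768). In absolute log2 fold change HSPB8 stood at percentile 98.2 of the tested genes, although it rests on only 95 to 136 reads a library in the HHEX shRNA group and 32 to 55 in the controls. With DESeq2, which calls 5.98% of the same genes, HSPB8 passed (adjusted p = 0.000386). In edgeR its log2 fold change was 1.36 without KD1 (adjusted p = 0.284) and 1.62 without KD3 (adjusted p = 0.000743). The fit without KD3 calls 31.6% of its 14791 genes. In these bulk libraries, more cells that express a gene and more RNA per cell cannot be told apart, which holds for each member.

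HSPB1 (ENSG00000106211, chromosome 7, 76302544 to 76304295, plus strand), known as HSP27 and a substrate of the kinase MAPKAPK2, did not follow HSPB8. In KD1, KD2 and KD3 it was at 6.14, 5.01 and 9.67 CPM, against 7.41, 15.1 and 8.02 CPM in control1, control2 and control3. KD1 and KD2 lay below all controls, KD3 lay among them, and control2 stood well above the other two, so that the groups overlap. Means were 6.94 ± 2.43 CPM in the libraries labelled HHEX shRNA and 10.2 ± 4.27 CPM in the controls (SD, n = 3 each). The log2 fold change of −0.55 (95% confidence interval −1.34 to 0.24, SE 0.35) did not pass (edgeR adjusted p = 0.386). It was −0.14 without control2 and −0.84 without KD3 (edgeR adjusted p = 0.861 and 0.0523), so that single libraries set its size. The pseudogenes HSPB1P1 and HSPB1P2 had no count in any library, though reads that HSPB1 shares with copies could still be split or dropped by the authors' counting.

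CRYAB (ENSG00000109846, chromosome 11, 111908565 to 111923722, minus strand), alpha-B crystallin, an abundant chaperone of lens and muscle, was not tested. It had 0, 0 and 1 counts in KD1, KD2 and KD3, against 1, 0 and 0 counts in control1, control2 and control3. All 6 libraries are under 3 counts, so CRYAB was not detectable at this depth and no fold is given. HSPB2, which lies head to head with it and shares 626 exon bases on the other strand, had no count in any library.

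BAG3 (ENSG00000151929, chromosome 10, 119651370 to 119677819, plus strand), the cochaperone that links HSP70 to small heat shock proteins and to autophagy, is itself a known target of HSF1. In KD1, KD2 and KD3 it was at 93.5, 84.3 and 141 CPM, against 47.5, 48.9 and 42.3 CPM in control1, control2 and control3. Each library labelled HHEX shRNA lay above each control, and KD3 stood far above KD1 and KD2. As log2 differences from the control mean these were 1.02 (KD1), 0.87 (KD2) and 1.61 (KD3). Means were 106 ± 30.6 CPM in the libraries labelled HHEX shRNA and 46.2 ± 3.52 CPM in the controls (SD, n = 3 each), a ratio of 2.30. The log2 fold change was 1.20 (95% confidence interval 0.75 to 1.65, SE 0.20), which did not pass (edgeR adjusted p = 0.0610). DESeq2 called BAG3 (adjusted p = 2.05e-05), and so did edgeR without KD3 (log2 fold change 0.97, adjusted p = 7.58e-05). Without KD1 the log2 fold change was 1.29 and did not pass (edgeR adjusted p = 0.185).

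BAG2 (ENSG00000112208, chromosome 6, 57172326 to 57189833, plus strand) was at 62.6, 67.0 and 65.7 CPM in the libraries KD1, KD2 and KD3, against 51.0, 52.8 and 52.0 CPM in control1, control2 and control3. The libraries within each group lay close together and the groups do not overlap. The means of 65.1 ± 2.26 CPM in the libraries labelled HHEX shRNA and 51.9 ± 0.915 CPM in the controls (SD, n = 3 each) gave a log2 fold change of 0.33 (95% confidence interval 0.07 to 0.58, SE 0.11), which did not pass (edgeR adjusted p = 0.172). RAB23, a small GTPase on the other strand, shares 2842 exon bases with BAG2 and averaged 25.0 ± 2.03 CPM in HHEX shRNA libraries against 16.1 ± 1.17 CPM in the controls (SD, n = 3 each). Whether counting used strand is unstated, and reads of BAG2 and RAB23 then cannot be told apart where they overlap, and the part of RAB23 in the BAG2 value was not tested. Without KD3 BAG2 passed (log2 fold change 0.34, edgeR adjusted p = 0.0344), and without KD1 it did not (0.36, edgeR adjusted p = 0.382).

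BAG1 (ENSG00000107262, chromosome 9, 33247820 to 33264720, minus strand) was at 57.5, 55.2 and 64.7 CPM in the libraries KD1, KD2 and KD3, against 46.5, 54.0 and 46.8 CPM in control1, control2 and control3. The groups do not overlap, but KD2 lay just above control2. With means of 59.1 ± 4.99 CPM in the libraries labelled HHEX shRNA and 49.1 ± 4.26 CPM in the controls (SD, n = 3 each), its log2 fold change was 0.27 (95% confidence interval −0.02 to 0.56, SE 0.13) and did not pass (edgeR adjusted p = 0.274). Under upper-quartile scaling the groups overlapped. BAG1 and BAG2 had the most alike profiles of any pair of members, with a root mean square difference of 0.10 on the centred log2 CPM scale over the 6 libraries. That difference is small for any pair of genes that vary little between libraries, and HSF1 with HSF2 came next at 0.130.

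Of the 3 other BAG genes, BAG4, BAG5 and BAG6, all were tested, all had a positive log2 fold change (0.05, 0.30 and 0.21, median 0.21) and none passed. BAG5, which acts on HSP70 in mitochondria-linked protein quality control, had every library labelled HHEX shRNA above every control, at 107 to 118 CPM against 85.4 to 103 CPM in the controls (edgeR adjusted p = 0.218). BAG6, a carrier of tail-anchored and mislocalized proteins, was the most abundant at 360 to 435 CPM in these libraries and 333 to 376 CPM in the controls, with overlapping groups. Of the 7 other genes listed by name as small heat shock genes, HSPB11 alone passed the filter, with a log2 fold change of 0.09 (edgeR adjusted p = 0.859). Whether HSPB11 belongs to the family beyond its name was not checked.

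**Figure D2:**
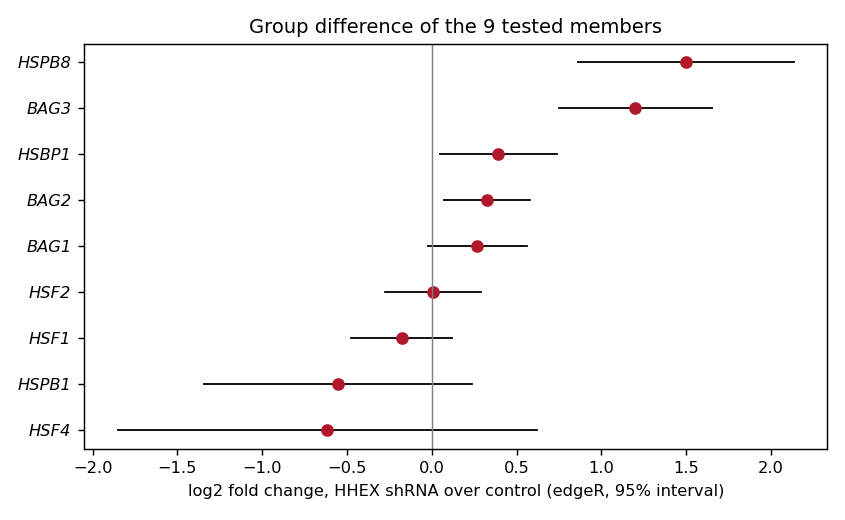
Log2 fold change of the 9 tested members, HHEX shRNA over control, with 95% confidence intervals from edgeR; the vertical line marks no difference. HSPB8 at 1.50 and BAG3 at 1.20 lie farthest from 0, and none of the 9 passed the adjusted test.

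The heat shock factors showed no difference that passed the test. HSF1 (ENSG00000185122, chromosome 8, 144291591 to 144314722, plus strand) was at 81.4, 74.3 and 90.9 CPM in the libraries KD1, KD2 and KD3, against 86.1, 103 and 89.7 CPM in control1, control2 and control3. KD1 and KD2 were the lowest libraries, KD3 lay above 2 of the controls, and the groups overlap. Means were 82.2 ± 8.36 CPM in the libraries labelled HHEX shRNA and 92.9 ± 8.92 CPM in the controls (SD, n = 3 each), and the log2 fold change of −0.18 (95% confidence interval −0.48 to 0.12, SE 0.13) did not pass (edgeR adjusted p = 0.463). It ran from −0.23 (without KD3) to −0.10 (without KD2) and −0.08 (without control2). An HSF1 transcript level says nothing of HSF1 activity, which is set largely at the protein. DGAT1 on the other strand shares 139 exon bases with HSF1.

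HSF2 (ENSG00000025156, chromosome 6, 122399546 to 122433119, plus strand) was at 53.9, 55.2 and 65.2 CPM in the libraries KD1, KD2 and KD3, against 56.4, 57.6 and 59.5 CPM in control1, control2 and control3. The controls lay between KD2 and KD3. At 58.1 ± 6.20 CPM in the libraries labelled HHEX shRNA and 57.8 ± 1.60 CPM in the controls (SD, n = 3 each), its log2 fold change was 0.01 (95% confidence interval −0.28 to 0.29, edgeR adjusted p = 0.980). Its sign turned under upper-quartile scaling, without scaling and without KD3, with values of −0.05, −0.04 and −0.06.

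HSF4 (ENSG00000102878, chromosome 16, 67164681 to 67169945, plus strand) was barely detected, with 9, 12 and 6 counts in KD1, KD2 and KD3, against 6, 17 and 20 counts in control1, control2 and control3. That is 0.630 ± 0.218 CPM in the libraries labelled HHEX shRNA and 0.961 ± 0.452 CPM in the controls (SD, n = 3 each). The groups overlap, and the log2 fold change of −0.62 (SE 0.54) did not pass (edgeR adjusted p = 0.539). With single libraries left out it ran from −0.91 (without control1) to −0.34 (without control3). AC074143.1 shares 1059 exon bases with HSF4 on the same strand and had no count in any library. Of 3 other factors and partners, HSBP1L1, a relative of HSBP1, alone passed the filter, with a log2 fold change of −0.53 (edgeR adjusted p = 0.326).

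HSBP1 (ENSG00000230989, chromosome 16, 83807843 to 83819737, plus strand) had the highest mean CPM of the 10 members in both groups, though in KD3 BAG3 lay above it. In KD1, KD2 and KD3 it was at 184, 180 and 132 CPM, against 123, 134 and 121 CPM in control1, control2 and control3. KD1 and KD2 lay above all controls, and KD3 lay just below control2, so that the groups overlap. With 165 ± 29.2 CPM in the libraries labelled HHEX shRNA and 126 ± 6.78 CPM in the controls (SD, n = 3 each), the log2 fold change was 0.39 (95% confidence interval 0.05 to 0.74, SE 0.15) and did not pass (edgeR adjusted p = 0.200). Without KD3 it was 0.56 and passed (edgeR adjusted p = 0.00175), and without KD1 it was 0.31 and did not (edgeR adjusted p = 0.484). The pseudogenes HSBP1P1 and HSBP1P2 had 1 count in KD3 and no count elsewhere.

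Taken one by one, each library labelled HHEX shRNA had 2 of the 9 tested members more than 1.5-fold above the control mean, and in each the 2 were HSPB8 and BAG3. The share of all tested genes past that fold on the higher side was 12.1% for KD1, 12.5% for KD2 and 6.5% for KD3. In each of these libraries 1 member was more than 1.5-fold lower, HSPB1 in KD1 and KD2 and HSF4 in KD3, where 17.9%, 18% and 10.1% of the genes were. Single controls, compared with the mean of their other two, spread as well: HSPB1 was over 1.5-fold higher in control2, HSPB8 and HSF4 were higher in control3, and HSF4 was lower in control1. On the log2 scale KD3 stood apart from KD1 and KD2 in HSPB1, at 0.00 in KD3 with −0.64 in KD1 and −0.93 in KD2, in BAG3 (1.61, 1.02 and 0.87 in the same order) and in HSBP1 (0.07, 0.55 and 0.52).

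**Figure D3:**
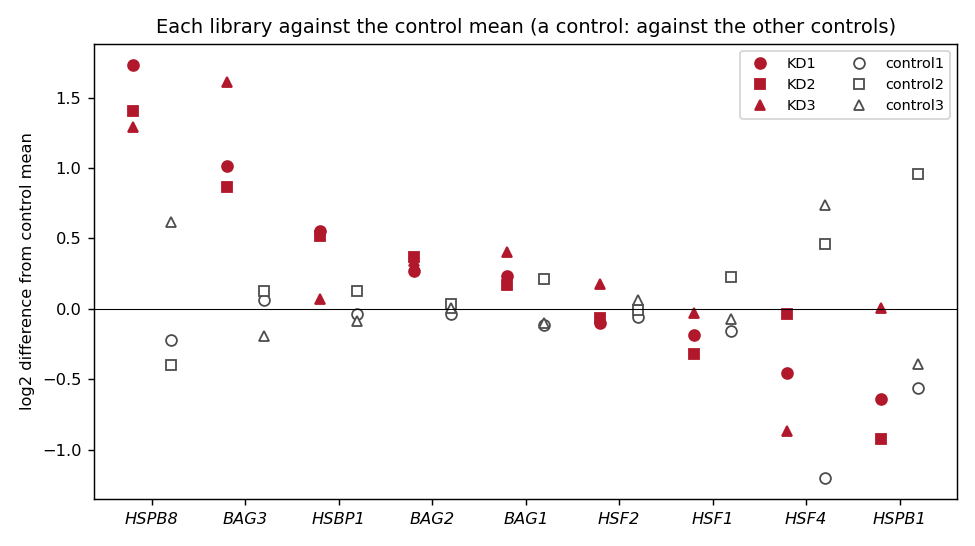
Log2 difference of each library from the control mean for the 9 tested members (for a control, from the mean of the other two), with libraries labelled HHEX shRNA left of the controls. HSPB8 is positive in KD1, KD2 and KD3 (1.73, 1.41 and 1.29) and spans −0.40 to 0.62 in the controls.

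Per kilobase of exon length, the scale on which levels of different genes can be compared, BAG3 led the members in the libraries labelled HHEX shRNA and HSF2 led them in the controls. BAG3 was at 38.7 ± 11.2 CPM per kb in the libraries labelled HHEX shRNA and 16.8 ± 1.28 CPM per kb in the controls (SD, n = 3 each). HSF2 was at 21.5 ± 2.30 CPM per kb in the libraries labelled HHEX shRNA and 21.4 ± 0.592 in the controls. HSBP1 was at 17.4 ± 3.06 CPM per kb in the HHEX shRNA group and 13.2 ± 0.712 in the controls, and HSF1 at 15.5 ± 1.58 in the HHEX shRNA group and 17.5 ± 1.68 in the controls. BAG3 and HSF2 thus stood first and second in the libraries labelled HHEX shRNA, while in the controls HSF2 and HSF1 did. The remaining order was the same in both groups: BAG2, BAG1, HSPB1, HSPB8, HSF4 and CRYAB. BAG2 led these with 9.79 ± 0.340 CPM per kb in the libraries labelled HHEX shRNA and 7.81 ± 0.138 in the controls, and HSPB8 had 2.70 ± 0.452 in the libraries labelled HHEX shRNA and 0.953 ± 0.263 in the controls. Among neighbours in that order, HSBP1 (13.8 to 19.4) and HSF1 (14.0 to 17.1) overlap in the libraries labelled HHEX shRNA, as do HSPB1 (3.07 to 5.92) and HSPB8 (2.35 to 3.21). In the controls HSF1 (16.2 to 19.4) and BAG3 (15.4 to 17.8) overlap, as do BAG1 (6.57 to 7.63) and HSPB1 (4.54 to 9.24), and the other neighbours do not. The length used here is the union of annotated exons, which is long for HSBP1 (9525 bases) and for BAG1 (7073 bases), so that unused exons lower their level on this scale.

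**Figure D4:**
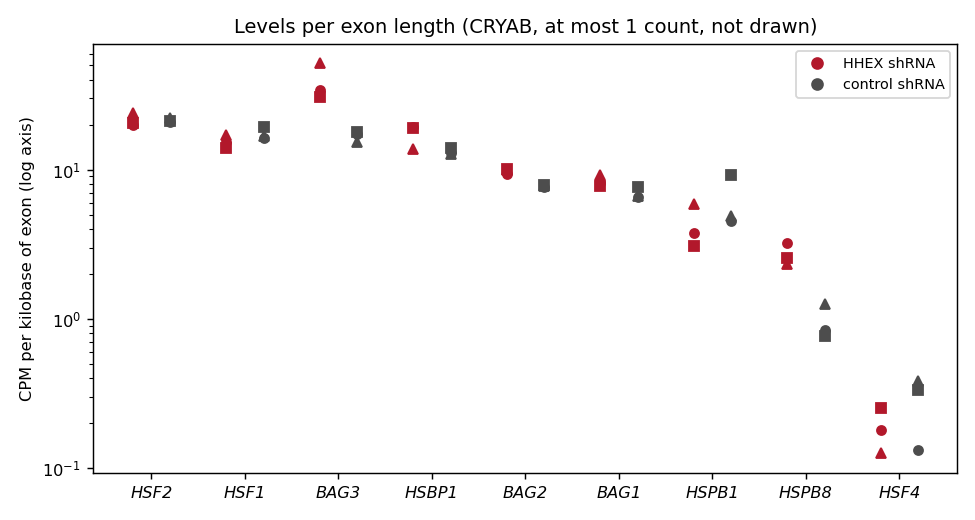
CPM per kilobase of exon length of each member except CRYAB, on a log axis; points are libraries, with those labelled HHEX shRNA left of the controls. BAG3 has the highest mean in the libraries labelled HHEX shRNA (38.7) and HSF2 in the controls (21.4).

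The 3 ratios within a library set partners against each other. The log2 ratio of BAG3 to BAG1 was 0.70, 0.61 and 1.12 in KD1, KD2 and KD3, against 0.03, −0.14 and −0.15 in control1, control2 and control3. All libraries labelled HHEX shRNA lay above all controls, with a difference of 0.90, and the exact two-sided permutation p was 0.1, the smallest that 3 against 3 libraries can give (0.15 adjusted over the 3 ratios). The log2 ratio of HSF1 to its binding partner HSBP1 was −1.18, −1.27 and −0.53 in KD1, KD2 and KD3, against −0.52, −0.37 and −0.43 in control1, control2 and control3. Here too the groups do not overlap, but KD3 lies next to control1, and the difference of −0.56 (−0.79 without KD3) had an exact permutation p of 0.1 (0.15 adjusted). The log2 ratio of HSPB8 to BAG3, which form a complex, was −3.33, −3.50 and −4.37 in KD1, KD2 and KD3, against −4.23, −4.39 and −3.51 in control1, control2 and control3. The groups overlap over nearly their whole range, and the difference of 0.31 (0.11 without KD1 and 0.63 without KD3) had an exact permutation p of 0.4 (0.4 adjusted).

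**Figure D5:**
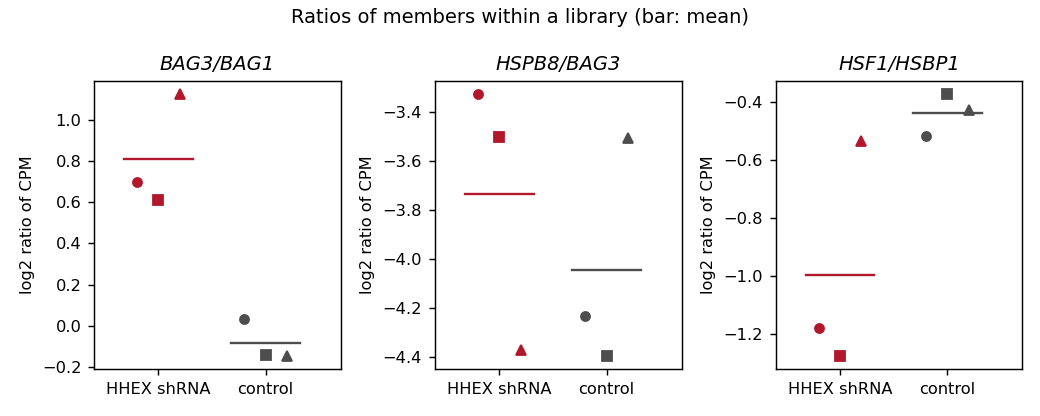
Log2 ratio of CPM for BAG3 to BAG1, HSPB8 to BAG3 and HSF1 to HSBP1 in each library, with the libraries labelled HHEX shRNA left of the controls and bars at group means. The BAG3 to BAG1 means are 0.81 in HHEX shRNA libraries and −0.08 in controls.

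Around the members, several HSP70 partners rose. Of 11 partners of BAG proteins and small heat shock proteins, all tested, 3 rose and none fell by edgeR's test, 9 had a positive log2 fold change, and the median was 1.24 beside −0.01 over all genes. HSPA8, the constitutive HSP70, averaged 2566 ± 409 CPM in the libraries labelled HHEX shRNA, with KD3 lowest at 2102 CPM, and 1075 ± 52.6 CPM in the controls (SD, n = 3 each, log2 fold change 1.26, edgeR adjusted p = 0.0456). HSPH1, a nucleotide exchange factor like the BAG proteins, averaged 558 ± 33.5 CPM in HHEX shRNA libraries and 214 ± 4.98 CPM in controls (1.39, edgeR adjusted p = 0.0164), and DNAJA1, a J-domain cochaperone, 417 ± 18.6 CPM in HHEX shRNA libraries and 177 ± 9.70 CPM in controls (1.24, edgeR adjusted p = 0.0169). Of 19 known targets of HSF1, 5 rose and none fell, 18 were positive and the median was 0.91. They share 3 of the 5 with the partners, and the remaining pair were HSP90AA1 and CHORDC1, a cochaperone of HSP90. HSP90AA1, the inducible HSP90, averaged 4422 ± 444 CPM in the libraries labelled HHEX shRNA and 1610 ± 102 CPM in the controls (SD, n = 3 each, log2 fold change 1.46, edgeR adjusted p = 0.0322). CHORDC1 averaged 189 ± 8.07 CPM in HHEX shRNA libraries and 91.4 ± 1.60 CPM in controls (1.05, edgeR adjusted p = 0.0173). These calls rest on the set of libraries: of the 26 called genes 0 passed when KD1, KD2, control1, control2 or control3 was left out, while all 26 passed without KD3 and with DESeq2.

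These partner and target lists were written with earlier results of these libraries known and are no independent evidence of a direction. The summed level of the 19 targets was 16329 to 17019 CPM in the libraries labelled HHEX shRNA and 7956 to 9041 CPM in the controls, so that KD3 did not stand apart in that sum. HSPB1, also a known HSF1 target, had a negative fold change beside them. Of 18 regulators of HSF1, 1 rose (HSP90AA1), 14 were positive and the median was 0.28.

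Around BAG3 and HSPB1 no gene of either list passed. Of 10 genes of BAG3-linked selective autophagy 9 were tested, none passed, 7 had a negative log2 fold change and the median was −0.29. By library the median difference of the list from the control mean was −0.65 (KD1), −0.48 (KD2) and 0.10 (KD3) on the log2 scale. HDAC6, which carries aggregates along microtubules, was at 42.9 to 44.7 CPM in the libraries labelled HHEX shRNA and 51.1 to 55.2 CPM in the controls (log2 fold change −0.29, edgeR adjusted p = 0.206), and TBK1, a kinase of autophagy receptors, at 48.5 to 53.8 CPM in HHEX shRNA libraries and 39.5 to 42.9 CPM in controls (0.30, edgeR adjusted p = 0.213). WIPI1, which acts in autophagosome formation, was at 5.54, 9.37 and 21.0 CPM in the libraries KD1, KD2 and KD3, against 20.4 to 23.7 CPM in the controls. The receptor SQSTM1, named after its values were seen, was at 154, 156 and 775 CPM in the libraries KD1, KD2 and KD3, against 332 to 333 CPM in the controls, so that KD3 stood above them and KD1 and KD2 below. MAP1LC3B, the autophagosome protein LC3B and chosen likewise, was at 87.9, 76.5 and 353 CPM in the libraries KD1, KD2 and KD3, against 256 to 348 CPM in the controls. Of 7 kinases upstream of HSPB1 none passed, 6 were positive and the median was 0.14. MAPKAPK2, which phosphorylates HSPB1, was at 90.3 to 96.8 CPM in the libraries labelled HHEX shRNA and 66.2 to 76.8 CPM in the controls (log2 fold change 0.35, edgeR adjusted p = 0.164), while MAPKAPK3 and MAPK14 had overlapping groups (−0.27 and 0.22).

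Genes with profiles nearest to a member over the 6 libraries were found by the root mean square difference of centred log2 CPM among 7671 tested genes at 20 CPM or more. For BAG3 they included ADAMTS1 (0.145), CDKN1A (0.170), JMJD6 (0.178) and TNFRSF10D (0.192), beside a root mean square of 0.629 for BAG3 about its own mean. These 4 had their highest value in KD3, and ADAMTS1 was at 138, 137 and 223 CPM in the libraries KD1, KD2 and KD3, against 73.7 to 87.0 CPM in the controls. For HSPB1 they were PHLDA2 (0.137), UBXN1 (0.140), EIF4EBP1 (0.153), H2AFJ (0.167) and TPT1 (0.171), beside 0.496 for HSPB1. All 5 had their highest value in control2 and their lowest in KD2, as HSPB1 did. For HSF1 they were SERPINH1 (0.0269), TBC1D22A (0.0326), EMC7 (0.0373), TPRA1 (0.0392) and SHARPIN (0.0412), beside 0.145 for HSF1, which is itself nearly flat. The likeness rests on 6 libraries that share depth and group and is a description. Among the members, HSPB8 and BAG3, both higher, were each other's nearest at 0.449, which is large beside the 0.629 of BAG3. Within the HHEX shRNA group they differed. In KD1, KD2 and KD3 BAG3 was at 93.5, 84.3 and 141 CPM, highest in KD3, and HSPB8 at 9.18, 7.30 and 6.71 CPM, lowest in KD3. The next nearest were BAG1 for BAG3 (0.479) and HSBP1 for HSPB8 (0.610). HSPB1 and HSPB8 were the least alike at 1.16.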

How the data were processed

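RNA was isolated with Trizol and libraries were made with a TIANSeq mRNA capture kit, per the labels' protocols. The authors deposited raw counts per gene for 6 libraries, and a further 6 columns of values per sample were not used. The aligner, the counter, the build and any strand setting were not given in the sources used here. Coordinates of 58646 of 58735 named genes equal those of GENCODE 29 on GRCh38, which gave exon lengths. Column names give a library's group but no replicate number. Unnamed rows, 0.239% to 0.298% of counts, were left out.

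Counts were filtered (filterByExpr), scaled by TMM and tested with glmQLFit (robust) and glmQLFTest of edgeR 4.0.16 in R 4.3.3, with Benjamini-Hochberg adjustment over 14280 genes and a threshold of 0.05. CPM carry TMM factors, log2 CPM a prior count of 2. Intervals are exact Poisson at 95%, and reads without molecular identifiers make them, and the 3-count floor, cover counting error only. Alternatives used DESeq2 1.42.0 and limma 3.58.1, and the fit was tested on simulated data. Nothing says that libraries came from separate cultures, so p-values measure only how these samples spread, which may be technical. Members and lists were chosen with earlier results of these data known. Named were all members, HHEX, list genes that passed or otherwise the up to 3 with the smallest p of each list, and the 5 nearest profiles of BAG3, HSPB1 and HSF1. Some genes that these rules or the marker lists take are not reported here. Planned protein features were not run.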

Additional observations from a re-analysis of the deposited data

How the results depend on the processing

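Over the alternatives run, 123 of 134 member fold changes kept their direction and side of the threshold, 8 newly passed and 3 changed sign. No member passed in the main fit, so none could lose a pass, which favours a high count of kept results. The 3 sign changes were all of HSF2, at −0.055 under upper-quartile scaling, −0.038 without scaling and −0.059 without KD3. Over the left-out libraries HSF2 ran from −0.059 to 0.061. Without a filter on low counts edgeR called 1359 genes and 2 members, HSPB8 and BAG3 (adjusted p = 0.000276 and 3.10e-10), and DESeq2 called 854 genes and the same 2 members, in place of 26 genes and 0 members. When each library was left out in turn, the called genes ranged from 0 to 4675, the called members from 0 to 4 and the members with non-overlapping groups from 4 to 8. The highest of each came without KD3, with HSPB8, BAG2, BAG3 and HSBP1 called, in a fit that called 31.6% of its 14791 genes. The share of all genes with non-overlapping groups is not given for these fits. The members with non-overlapping groups were 4 without KD1, KD2 or control3, 5 without control1 or control2, and 8 without KD3. A group with fewer libraries overlaps less often, which holds for each of these fits, and the cause of the rise without KD3 was not tested. Without the share over all genes that count is not read as a result about the members. By edgeR 0 genes passed without KD1 (1789 at an unadjusted p under 0.05), KD2 (1625), control2 (1947) or control3 (1806), and 1 without control1. The adjusted p over all alternatives ran from 3.10e-10 to 0.317 for BAG3 and from 0.000276 to 0.316 for HSPB8, with log2 fold changes of 0.97 to 1.35 and 1.36 to 1.75 over the left-out libraries. The cause of these shifts was not tested. By CPM without division by length 5 of 10 members held their rank in the controls. The log2 ratio differences ranged from 0.74 to 1.00 for BAG3 to BAG1, 0.11 to 0.63 for HSPB8 to BAG3 and −0.79 to −0.42 for HSF1 to HSBP1 over the left-out libraries. HSF4 dropped out under the stricter filter. No paired analysis was possible because the columns carry a group but no replicate number. Depth limits CRYAB and HSF4, with at most 20 counts a library.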
